A study of Mus musculus with 9 samples.

Results

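Clcf1, a ligand of the interleukin-6 (IL-6) cytokine family, and 8 other genes of that family were followed in mouse HEI-OC1 cells: the ligands Lif, Il6 and Il11, the receptor chains Il6st, Osmr and Lifr, the feedback inhibitor Socs3 and the transcription factor Stat3. These 9 genes, taken by name, are 9 of the 55451 genes in the table. HEI-OC1 is an immortalised line from the mouse organ of Corti, labelled as a cochlear hair cell line, and RNA was sequenced in 9 libraries of it. In 3 libraries the cells had been transduced with the frameshift form of LMX1A, a LIM-homeodomain transcription factor (c915dup), in 3 with wild-type LMX1A (WT) and in 3 with an empty vector (EV). All 3 groups are transduced cells of the same line, grown in DMEM with fetal bovine serum, and the labels name no promoter, clone or further agent. Clcf1 was chosen by its FPKM values in an earlier analysis of these libraries, which had shown it higher in c915dup than in WT, so its values are a description with no test. All 9 genes are likewise described without a test between c915dup and WT. The other 8 genes were listed with earlier results of these data known.

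IL-6 family cytokines share one receptor chain, gp130, which Il6st encodes. Each ligand joins gp130 to a partner chain, such as the LIF receptor or the oncostatin M receptor, and Janus kinases bound to these chains then phosphorylate STAT3, which enters the nucleus. STAT3 switches on Socs3, whose product blocks the receptor complex. In the cochlea, interleukin-6 signalling has been studied mainly after noise injury.

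Values are FPKM (read fragments scaled to transcript length and to library depth), so that levels can be set side by side between genes as well as between libraries. Library sums ran between 339489 and 358766 FPKM, and 11582 to 11884 genes per library reached 1 FPKM. An estimate of depth gave 13.3 to 16.3 times 1e6 fragments per library. It was read from the steps between low values within a fixed search range, so a depth outside that range could not have been found. Human LMX1A stood at 170, 150 and 149 FPKM in c915dup replicates 1, 3 and 4, at 133, 132 and 131 FPKM in WT replicates 1, 2 and 3, and was listed at 0 in every EV library. Of 10 hair cell markers 1, Myo6, reached a mean of 1 FPKM, and Atoh1, Pou4f3, Otof and Ocm were listed at 0 in all 9 libraries. Among 6 supporting cell and otic markers 3 reached it (Gata3, Jag1 and Fgfr3), and Sox2 and Prox1 were listed at 0 throughout. Among 6 mesenchymal markers 5 reached it, all but Thy1, which was listed at 0 throughout. Endothelial and epithelial markers, 4 of each, had 0 that reached it. Of 8 leukocyte markers 1 reached it, with summed levels of 3.13 to 4.18 FPKM in c915dup, 2.07 to 3.78 FPKM in WT and 2.54 to 3.46 FPKM in EV. The library numbered 1 of each group stood apart, with 4.36% to 5.49% of its FPKM on the mitochondrial chromosome against 1.69% to 2.17% in the other 6 libraries, so values without these 3 libraries are given where they matter. No label says that libraries of a group are separate cultures, so each p-value reflects the spread between libraries, which may be technical.

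Sequence upstream of the start is shown for Lif and Il6, which, like Clcf1, are ligands whose LMX1A libraries of both kinds lay above EV, and around the STAT motif of Socs3, the feedback gene of the pathway. Sequences are from RefSeq (GRCm38.p6, the build of the table), read 5′ to 3′ on the gene's strand, with motif matches in capitals. For Lif (chr11:4257318-4257556, + strand) the capitals mark an AP-1 motif. For Il6 (chr5:30012864-30013113, + strand) they mark, in order, an AP-1 motif, the CRE core TGACG read on the other strand and an NF-kB motif. For Socs3 (chr11:117969502-117969530, - strand) they mark the STAT motif.
Lif: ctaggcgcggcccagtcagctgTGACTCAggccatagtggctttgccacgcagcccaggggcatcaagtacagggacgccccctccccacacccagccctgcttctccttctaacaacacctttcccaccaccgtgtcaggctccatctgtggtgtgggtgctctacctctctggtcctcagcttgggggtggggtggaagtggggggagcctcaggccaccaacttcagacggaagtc
Il6: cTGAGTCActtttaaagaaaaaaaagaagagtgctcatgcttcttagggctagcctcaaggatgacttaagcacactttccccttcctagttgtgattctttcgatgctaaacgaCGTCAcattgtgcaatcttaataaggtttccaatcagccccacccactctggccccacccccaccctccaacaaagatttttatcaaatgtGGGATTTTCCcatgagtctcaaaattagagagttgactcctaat
Socs3: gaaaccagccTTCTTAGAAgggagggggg

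The 250 bases before each RefSeq start of the 8 genes other than Clcf1 were searched on both strands for 8 motifs: STAT (TTCNNNGAA), AP-1 (TGANTCA), CRE (TGACGTCA), the CRE core TGACG that the full CRE contains, EGR (GCGGGGGCG), the homeodomain core TAATTA, and the NF-kB and serum response elements by name. The AP-1 match of Lif lay at -228 to -222 and that of Il6 at -249 to -243 from the start. Il6 also held the CRE core at -135 to -131 and the NF-kB match at -44 to -35. The STAT match of Socs3 lay at -154 to -146, inside an intron of another annotated transcript of the gene and in no annotated exon, and an EGR match lay at -181 to -173. An AP-1 match lay at -98 to -92 from the second start of Il11 and an EGR match at -91 to -83 from the first start of Lifr. The windows of Il6st, Osmr and Stat3 held none of these motifs. The window of the second Il11 start, those of Lifr and that of Osmr lie inside the annotated gene. For 8 of the 10 starts, the 50 bases that follow the window were found in an annotated transcript of the gene. Over 32851 windows of the same length, 6.75% held AP-1, 7.02% STAT, 17.8% the CRE core, 3.9% NF-kB, 2.57% EGR, 1.55% CRE, 4.84% TAATTA and 1.47% the serum response element.

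Among the ligands, Clcf1 was the most abundant and was ordered by group. Clcf1 (ENSMUSG00000040663, chr19:4214238-4223490, + strand) encodes cardiotrophin-like cytokine factor 1, which signals through gp130, the LIF receptor and the CNTF receptor. Its level was 17.6, 18.3 and 17.8 FPKM in c915dup replicates 1, 3 and 4, 12.2, 11.8 and 12.2 FPKM in WT replicates 1, 2 and 3, and 10.9, 10.2 and 11.1 FPKM in EV replicates 1, 2 and 3. Every c915dup library lay above every WT library, and every WT library above every EV library. The mean was 17.9 ± 0.341 FPKM in c915dup, 12.1 ± 0.225 FPKM in WT and 10.7 ± 0.44 FPKM in EV (SD, n = 3 each). The level in c915dup was thus 1.67 times that in EV and 1.48 times that in WT, and the level in WT was 1.13 times that in EV. On the log2(FPKM + 1) scale, which understates differences of low genes, the difference was 0.69 ± 0.05 between c915dup and EV, 0.53 ± 0.05 between c915dup and WT and 0.16 ± 0.05 between WT and EV (SE). Without the libraries numbered 1 these differences were 0.71, 0.55 and 0.16. The gene shares exon bases with AC109138.7 on the same strand, which was listed at 0 in 7 libraries and reached at most 0.0421 FPKM. In cultures measured in bulk, fewer cells that make a transcript and less of it per cell cannot be told apart.

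Lif was higher with either form of LMX1A than with the vector. Lif (ENSMUSG00000034394, chr11:4257557-4272514, + strand) encodes leukaemia inhibitory factor, which binds the LIF receptor and gp130. Its level was 7.75, 7.97 and 7.75 FPKM in c915dup replicates 1, 3 and 4, 7.65, 7.84 and 6.61 FPKM in WT replicates 1, 2 and 3, and 4.82, 5.27 and 4.83 FPKM in EV replicates 1, 2 and 3. The c915dup and WT libraries overlapped, and both groups lay above all 3 EV libraries. Lif rose to 7.82 ± 0.129 FPKM in c915dup, against 4.97 ± 0.253 FPKM in EV (SD, n = 3 each), which is a log2 difference from EV of 0.56 ± 0.07 (SE; limma adjusted p = 0.0054). It rose to 7.37 ± 0.66 FPKM in WT, against the same EV libraries, by 0.48 ± 0.07 (SE, limma adjusted p = 0.027). The call between c915dup and EV held under 20 of 20 alternative settings, with limma adjusted p between 0.00098 and 0.036. The call between WT and EV held under 10 of 20, with limma adjusted p between 0.0056 and 0.18, and it was lost in 7 of the 9 fits that left out 1 library, all but those without c915dup replicate 1 and without WT replicate 3. Between c915dup and WT the Lif difference was 0.08 ± 0.07 (SE).

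Il6 was higher in the libraries of both LMX1A forms than in EV, with a wide spread. Il6 (ENSMUSG00000025746, chr5:30013114-30019981, + strand) encodes interleukin-6, the family's founding member, which signals through its own receptor and gp130. Its level was 6.48, 4.37 and 4.71 FPKM in c915dup replicates 1, 3 and 4, 4.38, 5.45 and 5.95 FPKM in WT replicates 1, 2 and 3, and 4.16, 1.73 and 2.93 FPKM in EV replicates 1, 2 and 3. The lowest c915dup and WT libraries lay just above the highest EV library, which was replicate 1. Means were 5.19 ± 1.13 FPKM in c915dup, 5.26 ± 0.806 FPKM in WT and 2.94 ± 1.22 FPKM in EV (SD, n = 3 each). The log2 difference was 0.68 ± 0.22 between c915dup and EV (SE, limma adjusted p = 0.24) and 0.71 ± 0.22 between WT and EV (SE, limma adjusted p = 0.53), and neither passed. Without the libraries numbered 1 they were 0.76 and 1.03, and both passed (limma adjusted p = 0.045 and 0.034). This was the only one of 20 alternative settings in which either passed, and it left 2 libraries in each group. Without EV replicate 2, the lowest library, the differences were 0.44 between c915dup and EV and 0.47 between WT and EV, and neither passed.

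Il11 was close to the limit of detection. Il11 (ENSMUSG00000004371, chr7:4772373-4782859, - strand) encodes interleukin-11, another ligand that uses gp130. Its level was 0.309, 0.390 and 0.202 FPKM in c915dup replicates 1, 3 and 4, 0.252, 0.117 and 0.210 FPKM in WT replicates 1, 2 and 3, and 0.127, 0.165 and 0.276 FPKM in EV replicates 1, 2 and 3. All 3 groups overlapped, and these levels stand for an estimated 3.17 to 11.5 fragments per library over the longest transcript. Il11 fell under the minimum of 1 FPKM in 3 libraries and was not tested, while the other 8 genes were above it.

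**Figure D1:**
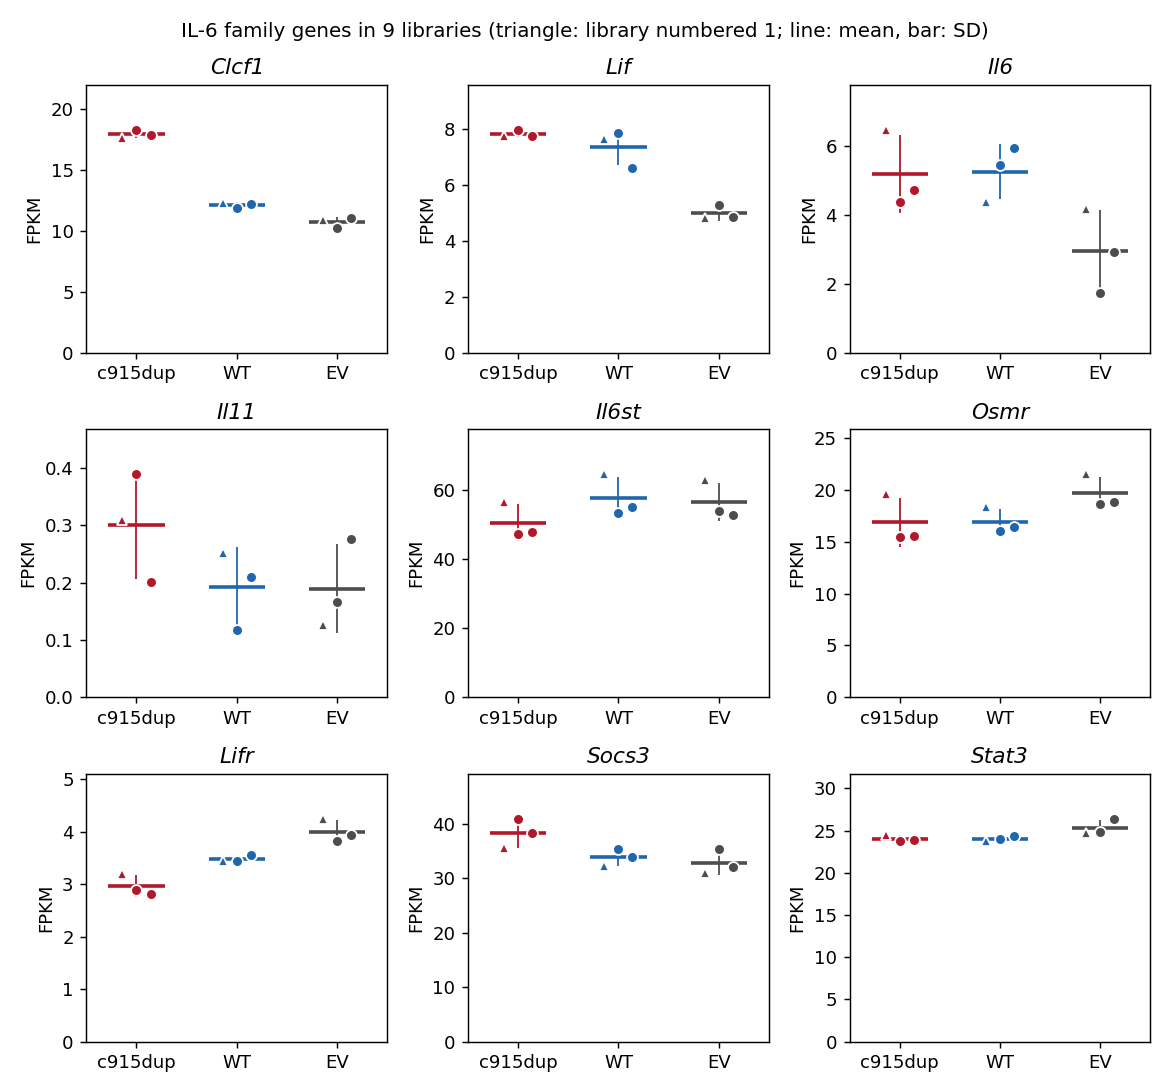
Level of the 9 IL-6 family genes in FPKM (vertical axes, from 0) in c915dup, WT and EV (horizontal axes). Points are libraries, triangles the libraries numbered 1, lines the means and bars the SD (n = 3). Clcf1 falls into 3 separate levels around 17.9, 12.1 and 10.7 FPKM, and Lif is near 7.82 and 7.37 FPKM in c915dup and WT with EV at 4.97 FPKM.

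Averaged over the 9 libraries, the genes were ordered as Il6st (54.8 FPKM), Socs3 (35 FPKM), Stat3 (24.5 FPKM), Osmr (17.8 FPKM), Clcf1 (13.6 FPKM), Lif (6.72 FPKM), Il6 (4.46 FPKM), Lifr (3.48 FPKM) and Il11 (0.227 FPKM). Within groups this order turned in places: in c915dup Clcf1 averaged 17.9 FPKM and Osmr 16.9 FPKM, and in EV Lifr averaged 4 FPKM and Il6 2.94 FPKM. The receptor chains thus ran across the range, and none of them passed the test. Il6st (ENSMUSG00000021756, chr13:112464070-112510086, + strand), which encodes gp130, was the most abundant of the 9 genes. Its level was 56.5, 47.3 and 47.6 FPKM in c915dup replicates 1, 3 and 4, 64.5, 53.2 and 55.0 FPKM in WT replicates 1, 2 and 3, and 62.6, 53.8 and 52.6 FPKM in EV replicates 1, 2 and 3. The groups overlapped, and the library numbered 1 was the highest in each. The log2 difference was -0.16 ± 0.10 between c915dup and EV (SE, limma adjusted p = 0.62), 0.03 ± 0.10 between WT and EV (SE, limma adjusted p = 0.999) and -0.19 ± 0.10 between c915dup and WT. With a term for the libraries numbered 1 the first of these passed (limma adjusted p = 0.024), in 1 of 20 alternative settings. It did not pass without those libraries (limma adjusted p = 0.066) or with the replicate block (limma adjusted p = 0.14).

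Osmr (ENSMUSG00000022146, chr15:6813577-6874969, - strand) encodes the oncostatin M receptor. Its level was 19.6, 15.5 and 15.6 FPKM in c915dup replicates 1, 3 and 4, 18.4, 16.1 and 16.4 FPKM in WT replicates 1, 2 and 3, and 21.5, 18.7 and 18.8 FPKM in EV replicates 1, 2 and 3. The WT libraries all lay below the EV libraries, whereas c915dup replicate 1 lay among the EV libraries. The log2 difference was -0.21 ± 0.10 between c915dup and EV (SE, limma adjusted p = 0.46), -0.20 ± 0.10 between WT and EV (SE, limma adjusted p = 0.85) and -0.01 ± 0.10 between c915dup and WT. Between c915dup and EV it passed with a term for the libraries numbered 1 (limma adjusted p = 0.027) and without those libraries (limma adjusted p = 0.034).

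Lifr was ordered by group the opposite way to Clcf1. Lifr (ENSMUSG00000054263, chr15:7090614-7197489, + strand) encodes the LIF receptor, the partner chain through which LIF and cardiotrophin-like cytokine factor 1 both signal. Its level was 3.20, 2.88 and 2.82 FPKM in c915dup replicates 1, 3 and 4, 3.45, 3.44 and 3.55 FPKM in WT replicates 1, 2 and 3, and 4.25, 3.82 and 3.93 FPKM in EV replicates 1, 2 and 3. Every c915dup library lay below every WT library and every WT library below every EV library. The c915dup mean was 0.742 times the EV mean, the WT mean 0.869 times the EV mean and the c915dup mean 0.853 times the WT mean. The log2 difference was -0.33 ± 0.07 between c915dup and EV (SE, limma adjusted p = 0.082), -0.16 ± 0.07 between WT and EV (SE, limma adjusted p = 0.83) and -0.18 ± 0.07 between c915dup and WT. The difference from EV in c915dup passed under 4 of 20 alternative settings, with limma adjusted p between 0.02 and 0.27, and the lowest came with the term for the libraries numbered 1.

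Socs3 stood slightly above the other groups in c915dup. Socs3 (ENSMUSG00000053113, chr11:117966079-117970047, - strand) encodes the feedback inhibitor and is a target gene of STAT3 itself. Its level was 35.6, 41.0 and 38.3 FPKM in c915dup replicates 1, 3 and 4, 32.3, 35.4 and 33.9 FPKM in WT replicates 1, 2 and 3, and 31.1, 35.3 and 32.2 FPKM in EV replicates 1, 2 and 3. The lowest c915dup library, replicate 1, lay just above the highest WT and EV libraries, and WT and EV overlapped. The mean in c915dup was 1.17 times that in EV and 1.13 times that in WT. The log2 difference was 0.21 ± 0.07 between c915dup and EV (SE, limma adjusted p = 0.25), 0.04 ± 0.07 between WT and EV (SE, limma adjusted p = 0.999) and 0.17 ± 0.07 between c915dup and WT. Between c915dup and EV it passed only with the term for the libraries numbered 1 (limma adjusted p = 0.025), 1 of 20 alternative settings.

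Stat3 varied least of the 9 genes, its highest library being 1.11 times its lowest. Stat3 (ENSMUSG00000004040, chr11:100885098-100939540, - strand) encodes the transcription factor at the end of the pathway. Its level was 24.5, 23.7 and 23.9 FPKM in c915dup replicates 1, 3 and 4, 23.8, 23.9 and 24.4 FPKM in WT replicates 1, 2 and 3, and 24.7, 24.8 and 26.4 FPKM in EV replicates 1, 2 and 3. The c915dup and WT libraries overlapped, and both groups lay just below EV. The log2 difference was -0.07 ± 0.05 in both comparisons with EV and did not pass (limma adjusted p = 0.65 for c915dup and 0.95 for WT). Stat3 shares exon bases with Stat5a on the other strand, which ran between 9.3 and 10.2 FPKM, and the sources used here do not give whether reads were counted by strand. These are transcript levels, and phosphorylation of STAT3 was not measured.

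**Figure D2:**
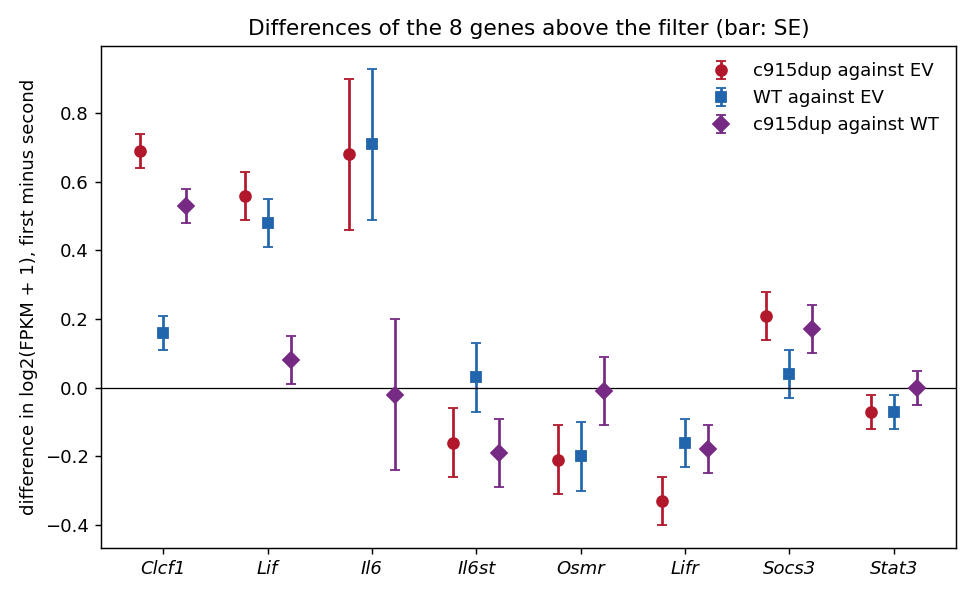
Difference in log2(FPKM + 1) (vertical axis, first group minus second, bars SE) for the 8 genes above the minimum (horizontal axis). Clcf1 is at 0.69 between c915dup and EV and at 0.53 between c915dup and WT, Lif and Il6 are positive in both comparisons with EV and near 0 between c915dup and WT, and Lifr is the lowest at -0.33 between c915dup and EV.

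Between c915dup and EV, 1 of the 7 tested genes other than Clcf1 rose (Lif) and 0 fell, against 1.09% of the 11933 genes tested that passed in either direction, 0.964% that rose and 0.126% that fell. At an unadjusted limma p under 0.05, 3 of the 7 were higher and 1 was lower, against 11.4% of all genes. Their median log2 difference was -0.07, and that of all genes 0.00. With a term for the libraries numbered 1, 2 rose (Lif and Socs3) and 3 fell (Il6st, Osmr and Lifr), where 5.54% of all genes passed, 3.44% higher and 2.1% lower. Counted without a test, 4 of the 8 genes above the minimum lay wholly above EV in c915dup (Clcf1, Lif, Il6 and Socs3) and 2 wholly below it (Lifr and Stat3), against 9.29% and 7.58% of all genes. This comparison shares its c915dup libraries with the contrast in which Clcf1 was chosen. The list of genes was drawn up with earlier results of these data known. Its shares beside those of all genes, here and between WT and EV, are therefore a description and not independent evidence.

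Between WT and EV, 1 of the same 7 genes rose (Lif) and 0 fell, against 0.352% of all genes that passed in either direction, 0.302% that rose and 0.0503% that fell. At an unadjusted limma p under 0.05, 2 were higher and 0 lower, against 6.13% of all genes, and the median log2 difference was 0.03. Lif also passed with the term for the libraries numbered 1 (limma adjusted p = 0.0056), a fit in which 1.22% of all genes passed, and with the replicate number as a block (limma adjusted p = 0.014), a fit in which 96 genes passed in place of 42, or 0.804%. Lif did not pass without the libraries numbered 1 (limma adjusted p = 0.082). Clcf1, Lif and Il6 lay wholly above EV in WT and Osmr, Lifr and Stat3 wholly below it, against 6.7% and 6.17% of all genes. The WT libraries were also part of the contrast that chose Clcf1, so nothing is read from its place in this count. Both comparisons with EV use the same 3 EV libraries, so their values for a gene are not independent. Between c915dup and WT, Clcf1 and Socs3 lay wholly above WT in c915dup and Lifr wholly below it, against 9.23% and 6.85% of all genes, and nothing is read from this count because the contrast chose Clcf1.

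The pairs of libraries within a class were also compared. Between the libraries numbered 1, the ratio of c915dup to EV was 1.62 for Clcf1 and 1.61 for Lif, and between the means of the other libraries it was 1.7 and 1.56. For Lifr it was 0.754 and 0.735, and for Socs3 1.15 and 1.17. These 4 genes differed by similar ratios in both classes, where the libraries numbered 1 give 1 library per group. Clcf1 was chosen by its values in these same libraries, so nothing is read from its likeness between classes. For Il11, close to the limit of detection, the ratio of c915dup to EV was 2.44 between the libraries numbered 1 and 1.34 between the others. The ratio of WT to EV for Il6 was 1.05 between the libraries numbered 1 and 2.45 between the others, and the ratio of c915dup to EV was 1.56 and 1.95. Among the EV libraries, replicate 1 had the most Il6, at 4.16 FPKM.

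**Figure D3:**
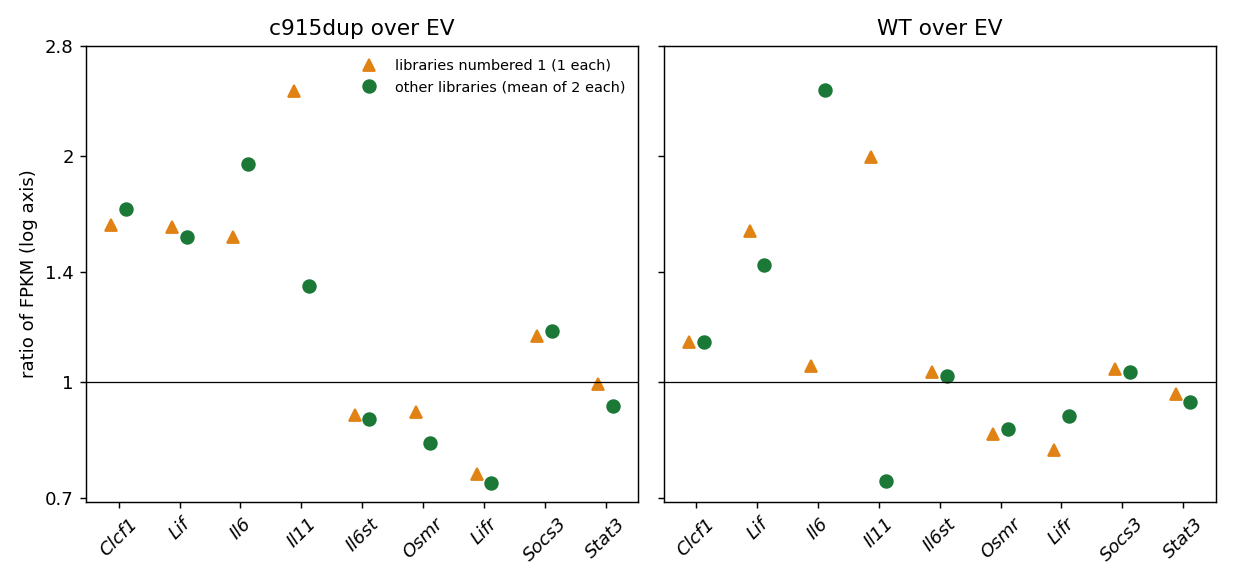
Ratio of FPKM (vertical axes, log scale) of c915dup over EV (left) and of WT over EV (right) for the 9 genes (horizontal axes), between the libraries numbered 1 (triangles, 1 library each) and between the means of the other libraries (circles, 2 each). Clcf1 is at 1.62 and 1.7 on the left and at 1.13 for both classes on the right, whereas Il6 is at 1.05 and 2.45 on the right.

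Of 13 further ligands and receptors of the family 5 were above the minimum, and 0 passed in any of the 3 comparisons (at an unadjusted limma p under 0.05, 1 was higher between c915dup and EV and 0 in the others, against 11.4% of all genes between c915dup and EV, 6.13% between WT and EV and 10.4% between c915dup and WT). Cntf, the ciliary neurotrophic factor, averaged 5.08 ± 0.344 FPKM in c915dup, 4.40 ± 0.714 FPKM in WT and 4.03 ± 0.592 FPKM in EV (SD, n = 3 each). Its log2 difference between c915dup and EV was 0.28 (limma adjusted p = 0.38), and it passed with the replicate block (limma adjusted p = 0.036). Ctf1, or cardiotrophin 1, averaged 2.43, 2.49 and 1.97 FPKM in c915dup, WT and EV. Il6ra, the receptor for interleukin-6, averaged 3.12, 2.89 and 3.02 FPKM, and Il11ra1, the receptor for interleukin-11, 21.2, 21.6 and 19.4 FPKM, the last being uncertain because near-identical copies of the gene exist. Cntfr, which encodes the CNTF receptor alpha chain that completes the receptor for Clcf1, was listed at 0 in 8 libraries and at 0.0293 FPKM in EV replicate 2. Osm, the oncostatin M gene that neighbours Lif on chromosome 11, reached at most 0.0296 FPKM in any library, while Osmr, its receptor gene, stood between 15.5 and 21.5 FPKM. Ebi3 and Il31 were listed at 0 in all 9 libraries, and Ctf2, Il27, Il27ra and Il31ra were also under the minimum.

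Of 19 JAK, STAT and inhibitor genes 18 were above the minimum, and 0 passed in any comparison. At an unadjusted limma p under 0.05, 1 was lower between c915dup and EV, 1 was higher between WT and EV and 2 were lower between c915dup and WT, against the same shares of all genes (11.4%, 6.13% and 10.4%). The median log2 difference of the 18 genes was -0.02 between c915dup and EV, 0.00 between WT and EV and -0.04 between c915dup and WT. Jak1, a kinase bound to gp130, averaged 39.5 ± 1.7 FPKM in c915dup, 43.1 ± 0.762 FPKM in WT and 41.9 ± 0.0879 FPKM in EV (SD, n = 3 each). Its log2 difference was -0.12 between c915dup and WT (limma adjusted p = 0.42) and -0.08 between c915dup and EV (limma adjusted p = 0.57). Tyk2, another Janus kinase, averaged 4.42, 4.56 and 3.97 FPKM in c915dup, WT and EV, and its difference between WT and EV was 0.16 (limma adjusted p = 0.81). Differences between WT and EV were -0.13 for the inhibitor gene Socs2 and 0.13 for the phosphatase gene Ptpn6 (limma adjusted p = 0.95 for both). Ptpn11, whose phosphatase product links gp130 to the MAP kinase pathway, differed by -0.12 between c915dup and WT (limma adjusted p = 0.48).

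Among 27 genes known as STAT3 targets in various tissues, 22 were above the minimum, and they moved in both directions. Between c915dup and EV 3 rose and 4 fell, where 1.09% of all genes passed, between WT and EV 1 rose and 2 fell, where 0.352% passed, and between c915dup and WT 1 rose and 0 fell, where 0.226% passed. The median log2 differences were 0.05, 0.02 and 0.06, with 0.00 over all genes in each comparison. Earlier work on these libraries had already given values for Saa3, Lcn2, Lbp, Steap4, Myc and Vegfa, which are among the genes that passed. Neither the number of list genes that passed nor their direction is therefore independent evidence. With the term for the libraries numbered 1, 7 rose and 5 fell between c915dup and EV, where 3.44% of all genes were called higher and 2.1% lower, the additional rises being Gfap, Junb, Mcl1 and Pim3 and the additional fall Hif1a.

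Pim1, which encodes a serine/threonine kinase that promotes cell survival, followed the same order as Clcf1. Its level was 36.0, 36.2 and 34.4 FPKM in c915dup replicates 1, 3 and 4, 26.2, 28.2 and 24.8 FPKM in WT replicates 1, 2 and 3, and 20.8, 19.2 and 18.3 FPKM in EV replicates 1, 2 and 3. The 3 groups did not overlap. Lcn2, Lbp and Steap4 of the same list lay in the opposite order, also without overlap between groups. Their differences between c915dup and WT did not pass. Pim1 rose by a log2 difference of 0.84 ± 0.07 between c915dup and EV (SE, limma adjusted p = 0.00016). Its rise of 0.42 ± 0.07 between WT and EV (SE, limma adjusted p = 0.033) was lost in 7 of 9 fits that left out 1 library, and its rise of 0.42 between c915dup and WT (limma adjusted p = 0.047) in 8 of 9. Vegfa, the vascular endothelial growth factor, averaged 33.8 ± 1.31 FPKM in c915dup and 26.0 ± 2.27 FPKM in EV (SD, n = 3 each), a difference of 0.37 (limma adjusted p = 0.041), and Myc, a growth-promoting transcription factor, averaged 35.1 ± 2.4 FPKM in c915dup and 26.7 ± 0.301 FPKM in EV, a difference of 0.38 (limma adjusted p = 0.047). The Vegfa call was lost in 9 of 9 fits that left out 1 library and the Myc call in 7 of 9. In WT, Vegfa averaged 26.4 ± 0.818 FPKM and overlapped EV. Myc averaged 33.2 ± 2.95 FPKM in WT, wholly above EV and overlapping c915dup. The Myc difference between WT and EV was 0.30 and did not pass (limma adjusted p = 0.27).

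The targets that fell were acute-phase genes and a metalloreductase. Saa3, an inducible serum amyloid, fell to 4.99 ± 0.736 FPKM in c915dup and to 4.28 ± 0.955 FPKM in WT, against 13.5 ± 0.523 FPKM in EV (SD, n = 3 each), with log2 differences from EV of -1.28 and -1.47 (limma adjusted p = 0.00094 and 0.00089). Lcn2, the iron-binding lipocalin 2, fell to 5.73 ± 0.638 FPKM in c915dup and to 6.82 ± 0.0645 FPKM in WT, against 12.0 ± 1.05 FPKM in EV, with log2 differences of -0.96 and -0.74 (limma adjusted p = 0.00043 and 0.0053). Lbp, which binds lipopolysaccharide, averaged 7.35 ± 0.388 FPKM in c915dup and 11.3 ± 0.62 FPKM in EV, and its log2 difference was -0.56 (limma adjusted p = 0.004). In WT Lbp averaged 8.72 ± 0.529 FPKM, wholly below EV, with a difference of -0.34 that did not pass (limma adjusted p = 0.14). Steap4, the metalloreductase, averaged 9.46 ± 0.621 FPKM in c915dup and 14.7 ± 0.325 FPKM in EV, with a difference of -0.59 (limma adjusted p = 0.0015). In WT Steap4 averaged 11.2 ± 0.473 FPKM, wholly below EV, with a difference of -0.36 that did not pass (limma adjusted p = 0.058). With the term for the libraries numbered 1, both WT differences passed (limma adjusted p = 0.029 for Lbp and 0.011 for Steap4). Between c915dup and WT the Steap4 difference was -0.23 (limma adjusted p = 0.22) and the Vegfa difference 0.34 (limma adjusted p = 0.09), and neither passed.

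**Figure D4:**
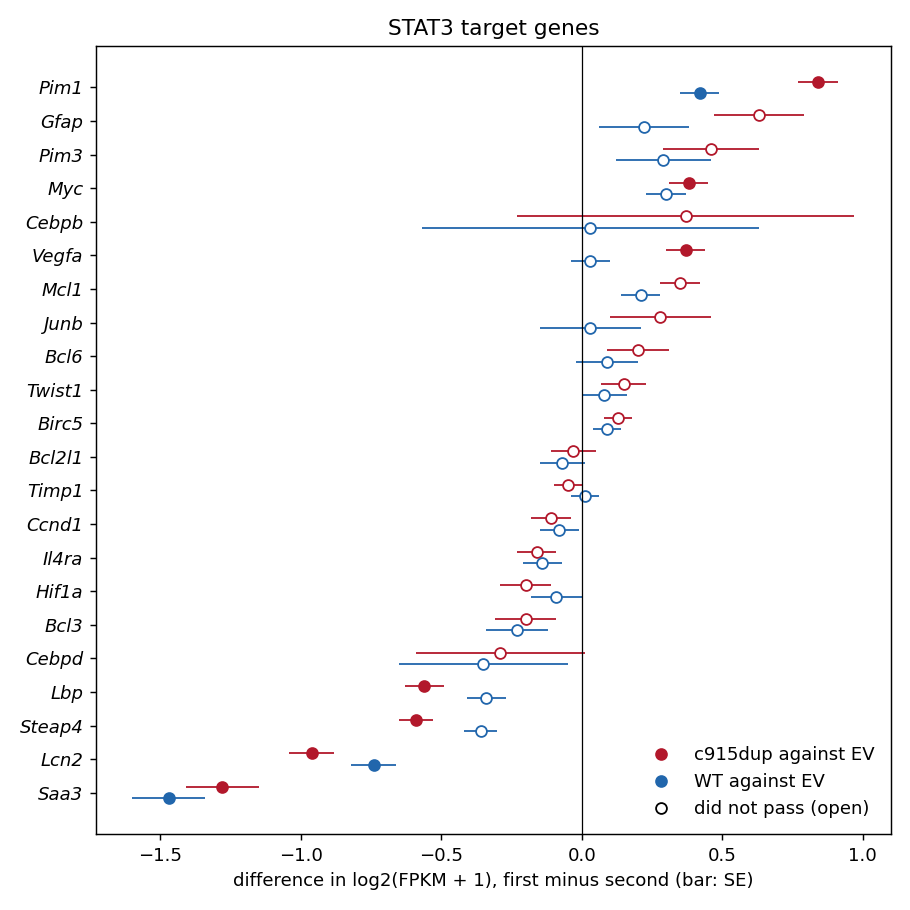
Difference in log2(FPKM + 1) from EV (horizontal axis, bars SE) of the 22 STAT3 target genes above the minimum (rows, ordered by the c915dup difference), in c915dup (red) and WT (blue), with filled points where the limma adjusted p was under 0.05. Pim1 leads at 0.84 in c915dup and 0.42 in WT, and Saa3 is lowest at -1.28 in c915dup and -1.47 in WT.

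The genes whose levels across the 9 libraries were most like those of Clcf1 were ranked by Pearson's r of log2(FPKM + 1), given as a description because the points share groups and libraries. Of the 5 nearest, 4 were Sgk1 (r = 0.969), a serum- and glucocorticoid-induced kinase, the predicted gene Gm43737 (0.965), Nfkbia (0.963), which encodes an NF-kB inhibitor, and Per1 (0.963), a circadian repressor. Sgk1 averaged 176 ± 2.16 FPKM in c915dup, 129 ± 1.53 FPKM in WT and 101 ± 1.35 FPKM in EV (SD, n = 3 each). Nfkbia averaged 113 ± 0.773, 76.4 ± 1.92 and 56.1 ± 2.3 FPKM in c915dup, WT and EV. Both genes, like Clcf1, were highest in c915dup and lowest in EV, with WT nearer to EV than to c915dup. This shared order follows from choosing them by their likeness to Clcf1.

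When each class of libraries was first centred on its own mean, the nearest 5 were Egr1 (r = 0.993), an immediate early transcription factor, Ccl2 (0.991), a chemokine for monocytes, Zfp36 (0.989), which destabilises cytokine transcripts, Klf2 (0.983), a Kruppel-like transcription factor, and the predicted gene Gm49759 (0.980). Egr1 averaged 257 ± 12.1 FPKM in c915dup, 198 ± 12.4 FPKM in WT and 175 ± 9.97 FPKM in EV (SD, n = 3 each). None of the 4 genes named from the first ranking was among the 5 of the second.

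**Figure D5:**
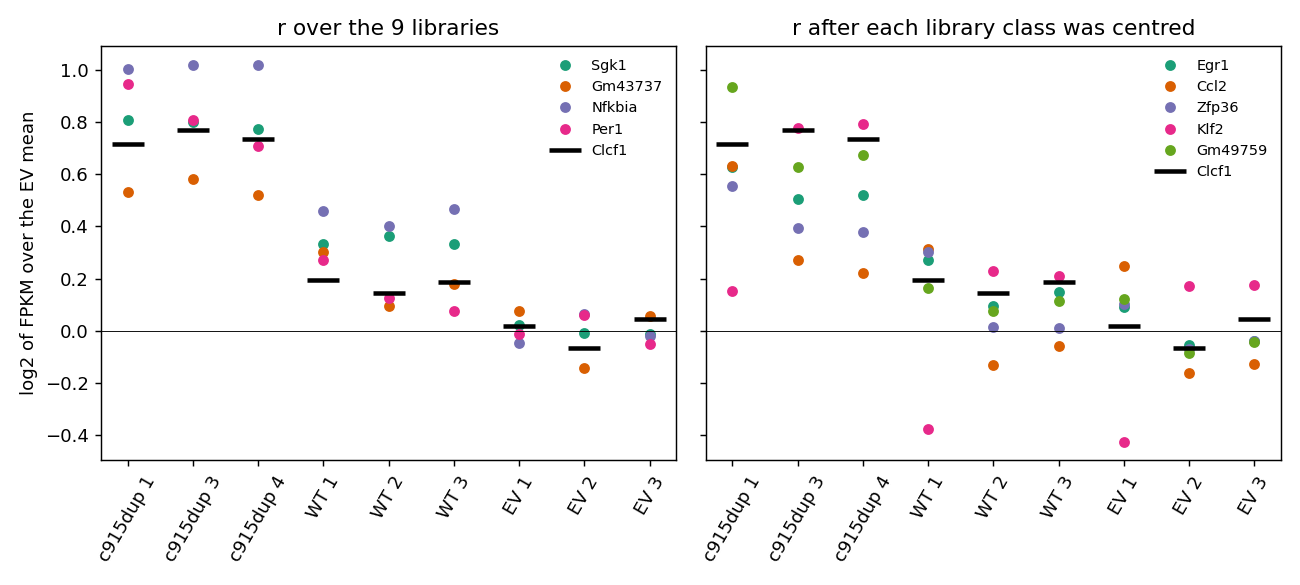
Log2 of FPKM over the EV mean (vertical axes) in the 9 libraries (horizontal axes) for Clcf1 (black bars) and genes most like it (4 on the left, 5 on the right) by Pearson's r over all libraries (left) and after each class of libraries was centred (right). On the left the genes share the steps between the groups at r of 0.963 to 0.969; on the right the libraries numbered 1 are offset for Klf2 and Ccl2.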

How the data were processed

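RNA of 9 HEI-OC1 libraries was measured by RNA sequencing, from 1 µg of total RNA each per the labels' protocols. The deposited values are FPKM made by the authors, a unit inferred from the values because no header names it. Per the submitters' processing notes, CASAVA 1.8, Trimmomatic, FastQC, HISAT2, RSEM and edgeR were run, the build being GRCm38 and the roles unstated, whereas the design text of the series gives BWA, and TopHat with Cufflinks. Strand use and the choice between these tools are not given. A second deposited table held identical values in 148608 of 148608 cells. The c915dup columns are numbered 1, 3 and 4 and were tied to their group only.

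Values were taken as log2(FPKM + 1). The 11933 genes that reached 1 FPKM in 3 or more libraries entered 1 limma fit with 3 group means over all 9 libraries (limma 3.58.1, R 4.3.3, eBayes with trend and robust, two-sided, Benjamini-Hochberg over all genes), with 0.05 as the threshold on the adjusted p. The test planned for counts did not apply to FPKM. The fit was also run on simulated data in which noise was independent between libraries and no library stood apart. That run does not show how the fit behaves with the libraries numbered 1. Python 3.11.15 with pandas 2.3.3, numpy 2.4.6 and matplotlib 3.10.9 did the rest. From each of 3 lists, genes that passed were named, and the 3 with the smallest p where fewer passed; Cntfr and Osm were added after their values were seen, and some genes these rules name are not reported here. The genes followed, the lists and the motifs were chosen with earlier results of these data known.

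Same-numbered libraries deviated from their group means together: between WT and EV the correlation across genes was 0.62, 0.39 and 0.26 for numbers 1, 2 and 3. It was 0.30 for WT 2 with EV 3 and 0.27 for WT 3 with EV 2, so number 1 alone stands out. The block is given beside the WT and EV result because every same-numbered pair was over 0.1, and no label states a pairing. Alternatives were the replicate block, a term for or removal of the libraries numbered 1, other pseudocounts, filters, scalings and fits, and leaving out each library.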

Additional observations from a re-analysis of the deposited data

How the results depend on the processing

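Of 50 results on single genes other than Clcf1 and on the ranking by likeness to Clcf1, 33 were stable under every alternative. Where tested they kept their direction and side of the threshold, and where untested they moved by less than the spread between libraries. For genes passing (130 between c915dup and EV, 42 between WT and EV, 27 between c915dup and WT), the term for the libraries numbered 1 gave 661, 145 and 574, leaving those libraries out 415, 85 and 361, no filter 66, 24 and 10, and only the compared groups 64, 27 and 14. Upper quartile scaling gave 61 between c915dup and WT, 50 higher and 11 lower, and quantile normalization 54, 44 higher and 10 lower, in place of 26 higher and 1 lower. Leaving out 1 library gave 61 to 111, 19 to 40 and 8 to 36. Of the IL-6 family genes other than Clcf1, 5 passed between c915dup and EV with the class term, 3 without the libraries numbered 1, and 2 with upper quartile scaling, quantile normalization or plain eBayes; between WT and EV 0 passed without the filter or with only 2 groups, and 0 to 1 when 1 library was left out. STAT3 targets passing between c915dup and EV were 12 with the class term and 12 without the libraries numbered 1 (5 to 7 leaving out 1 library), between WT and EV 7 with the class term (2 to 3), and between c915dup and WT 3 with the class term or without the libraries numbered 1, and 0 with no filter, a filter on a mean of 0.5 FPKM, only 2 groups or plain eBayes (0 to 2). The Clcf1 difference between c915dup and EV was 0.74 at a pseudocount of 0.1. Near 0, signs turned for Il6st between WT and EV (-0.05 without WT replicate 1, -0.02 without EV replicate 3, 0.00 without EV replicate 2, up to 0.11), Cntf between WT and EV (0.00 without WT replicate 2, up to 0.20) and Il6ra between c915dup and WT (-0.01 without the libraries numbered 1), and, among differences described without a test between c915dup and WT, for Il6 (-0.27 to 0.07 over the alternatives), Osmr (-0.12 to 0.04) and Stat3 (-0.02 to 0.01). The cause of these changes was not tested.

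With the replicate number as a block, 227, 96 and 137 genes passed. The block moved the further ligands and receptors between c915dup and EV to 1 and the STAT3 targets between c915dup and WT to 3. It changed no call of the IL-6 family genes. Number 4 is a level of its own, so c915dup replicate 4 is fitted exactly. Only numbers 1 and 3 are shared with c915dup, at correlations of 0.66 and 0.32 with EV and 0.64 and 0.23 with WT, so no pairing is claimed there. Il11 rests on an estimated 3.17 to 11.5 fragments per library, which limits its precision.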

Other observations

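Among the STAT3 target genes, the library numbered 1 was the lowest of each group for the CCAAT-enhancer factor Cebpb, a gene chosen after its values were seen. Its level was 3.34, 16.8 and 12.8 FPKM in c915dup replicates 1, 3 and 4, 3.85, 9.97 and 8.97 FPKM in WT replicates 1, 2 and 3, and 3.87, 8.49 and 9.70 FPKM in EV replicates 1, 2 and 3. Cebpb was not alone in this. Bcl3, Cebpd, Junb, Mcl1, Pim3 and Vegfa of the same list, and Socs3, were also lowest in the library numbered 1 of each group. Il6st and Osmr were highest in the library numbered 1 in all 3 groups.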
